A study of Mus musculus with 24 samples.

Results

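This section describes 9 genes: Ly6g6c, Ly6d, Ly6a, Ly6e, Ly6c1, Ly6g6e, Lypd2 and Lypd3, which encode proteins of the Ly6 family, and Plac8, an unrelated gene that was read beside them. They are 9 of the 35855 genes in the files, a list of names chosen by their measured levels in the 3 groups. Their differences between groups are therefore given below as descriptions without a test. All 9 passed the filter on low counts that left 12211 genes for testing. Each of the 24 bulk libraries measured RNA of 1000 epithelial cells, sorted out of the trachea of untreated, wild-type (WT) female C57BL/6 mice. The labels give 3 groups of 8 libraries, BCAM HI, BCAM LO and DIFFERENTIATED EPCS (called differentiated below); the BCAM groups carry a high or low level of the basal cell adhesion molecule and are, by the series title, subsets of basal cells. Each group holds 5 libraries of batch 1 (replicates 1 to 5) and 3 of batch 2 (replicates 6 to 8), and the labels do not say what a batch is. No label used here states an age or how many mice stand behind a library, so the p-values measure only the spread between these samples.

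Ly6 proteins are small proteins built on a three-finger fold held by disulfide bonds, and most are tied to the outer face of the cell membrane by a glycosylphosphatidylinositol (GPI) anchor. The family is used widely as a set of surface labels for stem cells, leukocytes and maturing epithelia. Ly6a, also called Sca-1, and Ly6e are known to be raised by interferon, and Ly6e protein limits the entry of coronaviruses. In the trachea, basal cells attach to the basement membrane and give rise to suprabasal, secretory and ciliated cells. Plac8 encodes a small cysteine-rich protein without a Ly6 domain, known from placenta, myeloid cells and several epithelia.

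The members with the widest differences between the BCAM groups were Ly6g6c and Plac8, and the DNA just before their start sites is shown for that reason. The set of RefSeq start sites used here (build GRCm38.p6) covered 4 of the 9 members, Ly6g6c, Ly6c1, Lypd3 and Plac8. It held no usable entry for Ly6d, Ly6a, Ly6e, Ly6g6e or Lypd2. Each sequence below holds the 250 bases before a start site, read 5′ to 3′ on the strand of the gene, and capitals mark the motif TATAAA. The Ly6g6c window lies at chr17:35067075-35067324 on the plus strand. Plac8 has a distal window at chr5:100572206-100572455 and a proximal window at chr5:100563097-100563346, both on the minus strand.
Ly6g6c: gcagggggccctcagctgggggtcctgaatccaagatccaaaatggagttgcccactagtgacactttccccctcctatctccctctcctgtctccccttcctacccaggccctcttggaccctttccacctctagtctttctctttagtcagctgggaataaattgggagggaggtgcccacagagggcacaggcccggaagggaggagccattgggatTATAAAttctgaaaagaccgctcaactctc
Plac8, distal start: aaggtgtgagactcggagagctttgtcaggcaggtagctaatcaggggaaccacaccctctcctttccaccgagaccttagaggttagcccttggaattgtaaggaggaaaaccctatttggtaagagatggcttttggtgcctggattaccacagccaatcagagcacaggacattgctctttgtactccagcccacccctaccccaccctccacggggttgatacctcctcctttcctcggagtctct
Plac8, proximal start: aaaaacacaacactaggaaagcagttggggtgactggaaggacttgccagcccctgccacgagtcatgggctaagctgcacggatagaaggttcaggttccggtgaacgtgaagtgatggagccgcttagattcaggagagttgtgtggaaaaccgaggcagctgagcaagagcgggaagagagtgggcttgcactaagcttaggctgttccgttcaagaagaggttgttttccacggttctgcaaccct
The motifs searched on both strands were TATAAA (the TATA box), TGANTCA (an AP-1 site), TTCNNNGAA (a STAT site) and an interferon-stimulated response element (GAAA, any 2 bases, GAAA). Ly6g6c holds TATAAA at bases -30 to -25 from its start site, and Ly6c1 holds it at -143 to -138 before the first of its start sites; neither Plac8 window has it. Of 32851 RefSeq windows of this length, 12.4% hold TATAAA, 6.75% TGANTCA, 7.02% TTCNNNGAA and 2.98% the interferon element. None of the last 3 motifs is in the windows of the 4 members found, and a match or its lack is a description of the letters only.

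Values are in CPM (counts scaled to the library total), scaled between libraries by edgeR's TMM factors, unless TPM, which also allows for transcript length, is named. Totals ran from 1824619 to 4440072 estimated counts per library. The differentiated libraries of batch 2 stood apart from those of batch 1. The 13 secretory genes read as markers summed to 35400, 21400 and 157200 CPM in differentiated 6, 7 and 8, against 342700 to 484000 CPM in differentiated 1 to 5. Bpifa1 and Scgb1a1 had the highest batch 1 means of the list, and these fell from 191900 to 18820 CPM and from 90000 to 5380 CPM. Not all of the list fell: Reg3g (7564 and 8770 CPM), Tff2 (777.5 and 881 CPM) and Muc5ac (27.4 and 71.8 CPM) had higher means in batch 2, and the others had lower ones. A list of 8 thyroid and parathyroid genes summed to 82880, 116400 and 49160 CPM in the same libraries, against 15350 to 31800 CPM in batch 1. Tg had the highest differentiated mean of this list in both batches, rising from 17840 to 79490 CPM. The parathyroid genes Pth (from 5107 to 78.13 CPM) and Gcm2 (from 14.3 to 1.084 CPM) fell instead, while the others rose. The whole list of 8 summed to 2.20 to 1281 CPM over the BCAM HI libraries and 2.60 to 453 CPM over the BCAM LO libraries, highest in replicate 7 of each group. All 13 basal markers were called higher in both BCAM groups than in the differentiated group (edgeR quasi-likelihood test, Benjamini-Hochberg (BH) adjusted p under 0.05, which is what "called" means below). Of all genes, 19.4% were called higher in BCAM HI and 16.3% in BCAM LO.

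Levels can be set side by side between genes only per length, in TPM. Lypd2, Ly6e and Ly6a held the first 3 places by median TPM in each group, in that order. In BCAM HI their medians were 1023, 950.2 and 358 TPM, and the libraries of Lypd2 and Ly6e overlapped, as did those of Ly6e and Ly6a. The same neighbours overlapped in BCAM LO and in the differentiated group. Lypd2 was above Ly6e in differentiated 1 to 5. In differentiated 6, 7 and 8 it was below, at 135.8, 176.2 and 709.5 TPM against 335.9, 334.3 and 1488 TPM of Ly6e. Below Ly6a the order began with a gap in both BCAM groups: no BCAM HI library had more than 38.4 TPM of Ly6c1, the next gene, while Ly6a had at least 123 TPM. The 6 other members spanned 1.52 TPM (Ly6g6e) to 27.9 TPM (Ly6c1) in BCAM HI by median, 6.70 TPM (Lypd3) to 150.4 TPM (Ly6g6c) in BCAM LO and 0.643 TPM (Lypd3) to 50.02 TPM (Plac8) in the differentiated group. Ly6g6c moved from 7th place in BCAM HI to 4th in BCAM LO, and Plac8 from 6th to 5th. Neighbours among these 6 overlapped in their libraries, except that Ly6d lay wholly above Plac8 in BCAM HI, and that Lypd3 lay wholly below its neighbour in BCAM LO and in the differentiated group.

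**Figure D1:**
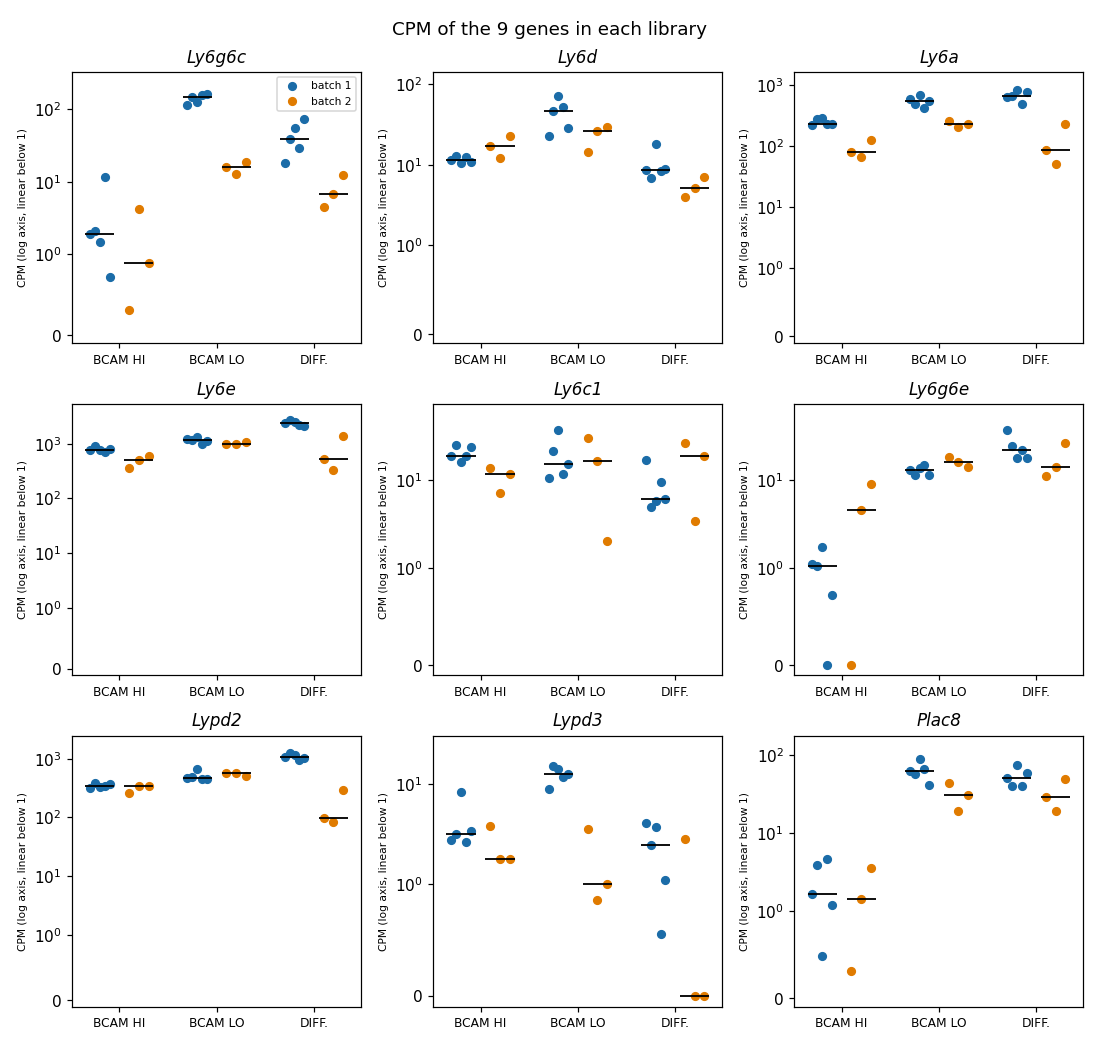
CPM of each member in each library (points; y axis logarithmic above 1 and linear below it), by group and batch, with a line at the median of each batch. Ly6g6c and Plac8 stay at or below 11.75 and 4.70 CPM in BCAM HI, below every BCAM LO library, while Lypd2 and Ly6e in the differentiated group fall into separate batches.

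Between BCAM HI and BCAM LO, all 9 members had a fitted log2 difference below 0, that is, a lower fit in BCAM HI, beside 50% of all 12211 genes (percent of genes fitted below 0). Their median log2 difference was -1.22, against 8.78e-05 over all genes. In 5 of the 9, Ly6g6c, Ly6e, Ly6g6e, Lypd2 and Plac8, every BCAM HI library lay below every BCAM LO library, beside 0.999% of all genes; 7.02% of genes were called in either direction. The choice of the list rests on these levels, so the counts describe it and support nothing further. In bulk samples, fewer cells that hold an RNA and less of that RNA per cell cannot be told apart. Of 11 suprabasal and hillock markers, 8 were called lower in BCAM HI and 0 higher (edgeR quasi-likelihood test, BH-adjusted p under 0.05), with a median log2 difference of -1.36. Their summed level was 2418 to 3869 CPM in BCAM HI and 4054 to 8657 CPM in BCAM LO, and none was at 0 in all libraries of either group. Of 13 secretory markers, 7 were called lower and 0 higher (median -2.02). Of 11 tested ciliated markers, 5 were called lower and 0 higher (median -2.66). Of 13 basal markers, 0 were called lower and 5 higher (median 0.726). Among all genes, 4.59% were called lower and 2.43% higher. The part of any of these lists in the members' differences was not tested.

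Ly6g6c and Ly6g6e are neighbours in the major histocompatibility complex class III region, on chromosome 17 (GRCm38, GENCODE M21) at 35065388 to 35070050 and 35076902 to 35078804, both on the plus strand. Ly6g6c had the widest difference of the members over all libraries and in batch 1, but not in batch 2, where that of Plac8 was wider. In BCAM HI it ran from 0.314 to 11.75 CPM with a median of 1.70 (n = 8), in BCAM LO from 12.9 to 164 CPM with a median of 121 (n = 8), and in the differentiated group from 4.52 to 73.1 CPM with a median of 23.9 (n = 8). The highest BCAM HI library, replicate 4, stayed under the lowest BCAM LO library, so these groups did not overlap, whereas the differentiated group overlapped with both. The fitted log2 difference of BCAM HI from BCAM LO was -4.85 (SE 0.49), from means of 2.93 and 94.8 CPM; it was -5.35 (SE 0.58) within batch 1 and -3.13 (SE 0.71) within batch 2. From the differentiated group it was -3.34 in BCAM HI and 1.51 in BCAM LO. Transcript ENSMUST00000173478 held 95.6% of the summed Ly6g6c counts in BCAM LO and 86.0% in the differentiated group, while BCAM HI had only 80 counts in all.

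Ly6g6e protein has been linked to nicotinic acetylcholine receptors. Its RNA ran from 0 to 9.19 CPM in BCAM HI (median 1.076, n = 8), from 11.5 to 18.5 CPM in BCAM LO (median 13.9, n = 8) and from 11.3 to 37.4 CPM in the differentiated group (median 20.1, n = 8). BCAM HI lay below both other groups in every library, and BCAM LO overlapped with the differentiated group. BCAM HI 4 and 6 had 0 counts, which allows up to 0.882 and 0.941 CPM (3 counts, counting error only). The fitted log2 difference from BCAM LO was -2.73 (SE 0.48). It was -3.73 (SE 0.40) within batch 1, -1.81 (SE 0.79) within batch 2 and -3.61 on the log2 scale of TPM + 0.1. Of the 31-base stretches in Ly6g6e transcripts, 15.4% also occur in other genes, chiefly its neighbour Ly6g6d, so counts could have been divided between them.

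Plac8 (chromosome 5, 100553725 to 100572245, minus strand) had the second widest difference between the BCAM groups. It ran from 0.314 to 4.70 CPM in BCAM HI (median 1.53, n = 8), from 18.9 to 88.1 CPM in BCAM LO (median 49.97, n = 8) and from 19.2 to 73.9 CPM in the differentiated group (median 44.4, n = 8). Every BCAM HI library lay below all libraries of the other groups, which overlapped with each other. The fitted log2 difference of BCAM HI was -4.52 (SE 0.34) from BCAM LO and -4.37 from the differentiated group, while BCAM LO differed from the latter by 0.15. Within batch 1 the BCAM HI difference from BCAM LO was -4.72 (SE 0.36), and within batch 2 it was -4.08 (SE 0.60).

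The estimated counts of Plac8 fell on different first exons in different libraries, a pattern picked after the values were seen and not tested. Transcript ENSMUST00000031264, whose first exon (100572145 to 100572245) spans the distal start site, held 97.8% of the summed Plac8 counts in BCAM LO and 77.8% in the differentiated group, but 19.7% in BCAM HI. Transcript ENSMUST00000097437, whose first exon (100562625 to 100562858) lies downstream of the proximal start site, held 0.553%, 20.3% and 69.1% in that order. The proximal start site itself lies within the first exon of ENSMUST00000112910 (100562841 to 100563423), which held 0.508%, 1.62% and 10.6%. In BCAM HI, 12 of the 12.03 estimated counts of the distal transcript came from replicate 8, and the group had only 61 Plac8 counts in its 8 libraries.
Differentiated 6 and 7 stood apart: 48.5 and 38.2 of their estimated Plac8 counts were on ENSMUST00000097437 (95.2% and 85.0%), while differentiated 1, 2 and 4 had 0 there. Those 2 libraries are also the ones with the lowest secretory and the highest thyroid sums, and the part of that in the split was not tested. Reads in the shared exons were divided among transcripts by estimation, so small counts on either transcript are uncertain.

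**Figure D2:**
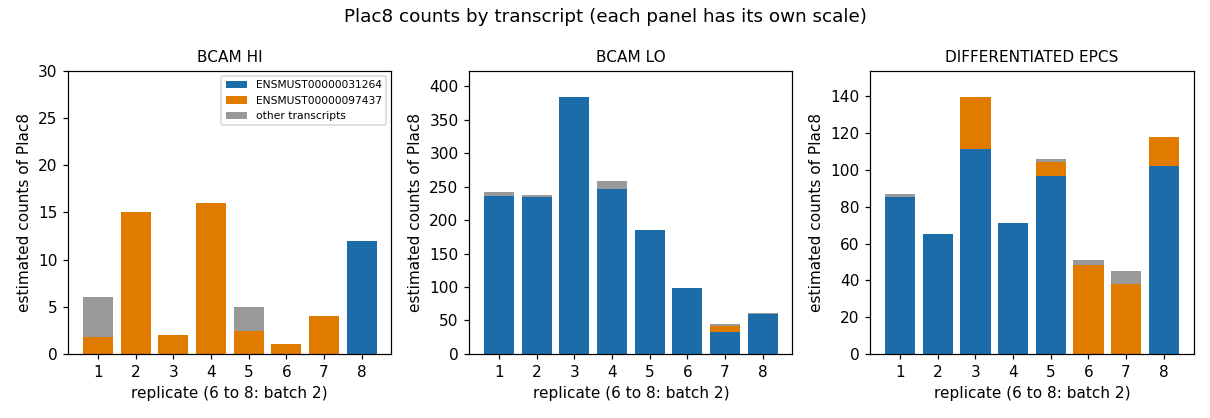
Estimated Plac8 counts in each library, stacked by transcript: ENSMUST00000031264, ENSMUST00000097437 and the other 2 transcripts; each group has its own y axis. BCAM LO and batch 1 of the differentiated group are mostly ENSMUST00000031264, whereas BCAM HI, with 61 counts in all, and differentiated 6 and 7 are mostly ENSMUST00000097437.

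On chromosome 15 lie 5 members between Lypd2 (74732247 to 74734329, minus strand) and Ly6c1 (75044018 to 75048830, minus strand): Lypd2, Ly6d (74762056 to 74763620, minus), Ly6e (74955051 to 74959905, plus), Ly6a (74994877 to 74998031, minus) and Ly6c1. Ly6e and Lypd2 were the most abundant. Ly6e ran from 366 to 902 CPM in BCAM HI (median 739, n = 8), from 985 to 1311 CPM in BCAM LO (median 1088, n = 8) and from 328 to 2685 CPM in the differentiated group (median 2121, n = 8). BCAM HI lay below BCAM LO in every library, while the differentiated group reached both the lowest and the highest value. The fitted log2 difference of BCAM HI from BCAM LO was -0.77 (SE 0.24). BCAM LO differed from the differentiated group by -0.50, which turned to 0.11 on the log2 scale of TPM + 0.1 and to 0.45 in batch 2 alone. On that TPM scale the median of all genes was shifted upward too, as given in the section on processing.

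Lypd2, a member whose function is little known, ran from 262 to 390 CPM in BCAM HI (median 342, n = 8), from 442 to 674 CPM in BCAM LO (median 489.5, n = 8) and from 82.3 to 1239 CPM in the differentiated group (median 992, n = 8). Again every BCAM HI library lay below every BCAM LO library, and the differentiated libraries lay on both sides. Its log2 difference of BCAM HI from BCAM LO was -0.66 (SE 0.37). Ly6a ran from 65.8 to 288 CPM in BCAM HI (median 224, n = 8), from 204 to 695 CPM in BCAM LO (median 458, n = 8) and from 50.8 to 819 CPM in the differentiated group (median 565, n = 8), so that all 3 groups overlapped. The log2 difference of BCAM HI from BCAM LO was -1.22 (SE 0.25), and the groups did not overlap within either batch. Of its 31-base stretches, 31.9% occur also in other genes, chiefly Ly6c1, Ly6i and Ly6c2, so part of its counts could belong to those genes.

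Interferon genes were read beside Ly6a and Ly6e, which interferon is known to raise. Of the 19 tested interferon genes, 4 were called lower and 0 higher in BCAM HI than in BCAM LO, and 11 lower and 1 higher in BCAM HI than in the differentiated group (edgeR quasi-likelihood test, BH-adjusted p under 0.05). Beside these counts stand 4.59% and 22% of all genes called lower. The summed level of the 21 genes of the list was 345 to 510 CPM in BCAM HI, 353 to 766 CPM in BCAM LO and 314 to 1139 CPM in the differentiated group, with differentiated 6 and 7 at 317 and 314 CPM. Their part in the levels of Ly6a and Ly6e was not tested.

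Ly6d, a GPI-anchored protein of keratinocytes also used to mark early B lymphocytes, had its highest median in BCAM LO. It ran from 10.5 to 22.5 CPM in BCAM HI (median 12.2, n = 8), from 14.6 to 71.6 CPM in BCAM LO (median 29.4, n = 8) and from 3.95 to 17.9 CPM in the differentiated group (median 7.66, n = 8). Each pair of neighbouring groups overlapped. The fitted log2 difference of BCAM HI from BCAM LO was -1.37 (SE 0.27), and BCAM LO lay above the differentiated group by 2.13. Within batch 1 the BCAM HI difference from BCAM LO was -1.94 (SE 0.27) without overlap, and within batch 2 it was -0.46 (SE 0.37) with overlap. From the differentiated group, BCAM HI differed by 0.19 (SE 0.31) within batch 1, with overlap, and by 1.66 (SE 0.41) within batch 2, without.

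Lypd3 (chromosome 7, 24636550 to 24641118, plus strand), also called C4.4A and known from suprabasal layers of squamous epithelium, was the least abundant member in BCAM LO and the differentiated group. It ran from 1.77 to 8.32 CPM in BCAM HI (median 2.95, n = 8), from 0.857 to 15.1 CPM in BCAM LO (median 10.3, n = 8) and from 0 to 4.03 CPM in the differentiated group (median 1.78, n = 8). All groups overlapped, and differentiated 7 and 8 had 0 counts, which allows up to 1.28 and 1.23 CPM. Its log2 difference of BCAM HI from BCAM LO was -1.01 (SE 0.49); in batch 1 alone it was -1.60 (SE 0.42), and in batch 2 alone it did not pass the filter on low counts, with means of 2.44 and 1.798 CPM. Of its 31-base stretches, 10.4% occur also in the gene Gm26550.

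Ly6c1, known from monocytes and endothelium, was the member with the smallest difference between the BCAM groups. It ran from 7.07 to 25.2 CPM in BCAM HI (median 17.4, n = 8), from 2.02 to 36.8 CPM in BCAM LO (median 15.8, n = 8) and from 3.41 to 26.0 CPM in the differentiated group (median 7.72, n = 8), and all groups overlapped. Its log2 difference of BCAM HI from BCAM LO was -0.10 (SE 0.41), smaller than its error. The difference turned to 0.40 on the log2 scale of TPM + 0.1, where the median of all genes was shifted upward too. It was also 0.15 without BCAM LO 3, 0.07 without BCAM LO 6 and 0.01 without BCAM HI 7. Ly6c1 shares 46.8% of its 31-base stretches with other genes, chiefly Ly6c2, Ly6a and Ly6i, so its level is uncertain. The 12 endothelial markers summed to 34.5 to 68.7 CPM in BCAM HI, 21.7 to 108 CPM in BCAM LO and 17.9 to 55.9 CPM in the differentiated group, where Cldn5 was at 0. The 12 immune markers summed to 42.8 to 105 CPM, 23.7 to 369 CPM and 30.02 to 237 CPM in that order, with S100a9 at 0 in the differentiated group, and the part of either list in Ly6c1 was not tested.

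Against the differentiated group, the fitted log2 differences of BCAM HI were below 0 for 6 of the 9 members (48.4% of all genes), with a median of -1.10 against 0.02 over all genes. Only Ly6g6e and Plac8 of the 9 had every BCAM HI library below every differentiated library, where 7.3% of all genes did so, and none had every library above (6.1%). BCAM LO was fitted below the differentiated group in 3 of the 9 (48.3% of all genes), Ly6e, Ly6g6e and Lypd2, with a median of 0.15 against 0.02, and no member separated these groups in all 16 libraries, where 3.44% of genes lay wholly higher and 3.83% wholly lower. Both comparisons use the same differentiated libraries. The order of the groups by mean CPM over both batches differed among members. BCAM LO was highest for Ly6g6c, Ly6d, Ly6c1, Lypd3 and Plac8, and the differentiated group for Ly6a, Ly6e, Ly6g6e and Lypd2. For every member the highest group overlapped with the middle one. The lowest mean was in BCAM HI for Ly6g6c, Ly6a, Ly6e, Ly6g6e, Lypd2 and Plac8, and in the differentiated group for Ly6d, Ly6c1 and Lypd3. In batch 2 alone, BCAM LO had higher means than the differentiated group for Ly6a (230 and 121 CPM), Ly6e (1011 and 746.5 CPM) and Lypd2 (546 and 158 CPM). They were close for Plac8 (31.1 and 32.2 CPM) and Ly6c1 (16.1 and 16.1 CPM). In that batch BCAM HI was highest for Lypd3 (2.44 CPM) and lowest for Ly6c1 (10.8 CPM), and the differentiated group was lowest for Lypd2.

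**Figure D3:**
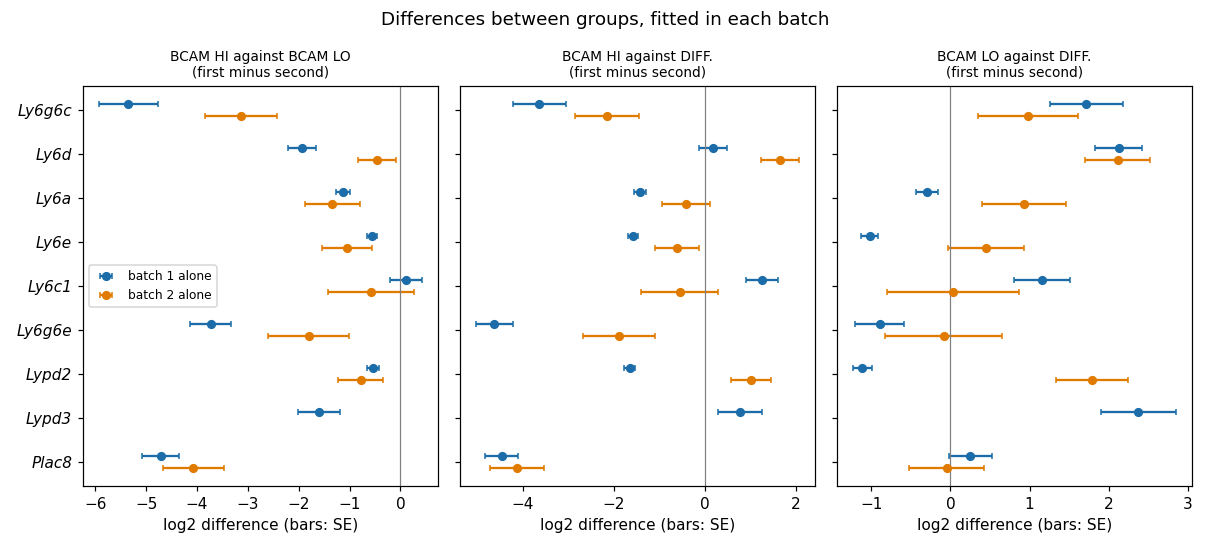
Fitted log2 difference between groups (x axis, first group minus second) for each member, fitted in batch 1 alone (5 against 5 libraries) and batch 2 alone (3 against 3), with bars of 1 SE; Lypd3 has no value in batch 2. Lypd2 lies at -1.65 in batch 1 and 1.01 in batch 2 for BCAM HI against the differentiated group.

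Read within a batch, BCAM HI lay wholly below BCAM LO for 8 of the 9 members in batch 1 (4.18% of all genes) and for 6 in batch 2 (12.4%). The exception in batch 1 was Ly6c1, and those in batch 2 were Ly6c1, Ly6d and Lypd3. Against the differentiated group, BCAM HI lay wholly below for 6 members in batch 1 (14.3% of genes); in batch 2 it lay wholly below for 3 (21.6%) and wholly above for 1, Ly6d (20.9%). BCAM LO lay wholly above the differentiated group for 3 members in batch 1 (10.2%), Ly6g6c, Ly6d and Lypd3, and wholly below for 3 (12.2%), Ly6e, Ly6g6e and Lypd2. In batch 2 it lay wholly above for Ly6g6c, Ly6d and Lypd2 (16.9%) and wholly below for none (16% of genes). Lypd2 thus changed sides: its log2 difference of BCAM LO from the differentiated group was -1.12 (SE 0.12) in batch 1 and 1.79 (SE 0.45) in batch 2.

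The list was chosen by levels in the groups, and the difference between batches within a group is another contrast. It was tested for the 9 members, with adjustment over all 12211 genes. Earlier results of these data were known when the members and tests were chosen, so these calls are not fully independent of that choice. In BCAM HI, 2 of 9 were called in either direction, where 8.04% of all genes were. Ly6a was 222 to 288 CPM in the 5 libraries of batch 1 and 79.4, 65.8 and 128 CPM in batch 2, without overlap. It fell by 1.46 on the log2 scale (SE 0.34, edgeR quasi-likelihood test, BH-adjusted p = 0.0103). Ly6g6e was 0 to 1.71 CPM in batch 1 and 0, 4.597 and 9.19 CPM in batch 2, so the batches overlapped at 0, and it was called 2.26 higher in batch 2 (SE 0.63, edgeR quasi-likelihood test, BH-adjusted p = 0.0245). Ly6a lost its call without BCAM HI 6 (-1.37) or 7 (-1.28), with a difference of much the same size. Ly6g6e lost its call without BCAM HI 2 (2.29), 5 (2.17), 7 (2.26) or 8, and only without BCAM HI 8 did the value move far, to 1.21. The interferon list summed to 434 to 510 CPM in batch 1 and 345 to 349 CPM in batch 2, and the thyroid and parathyroid list to 2.20 to 39.3 and 79.5 to 1281 CPM; their part was not tested.

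In BCAM LO, 3 of 9 members were called, all lower in batch 2, where 11.1% of genes were called in either direction and 4.66% lower. Ly6g6c was 116 to 164 CPM in batch 1 and 15.9, 12.9 and 18.7 CPM in batch 2, so that the batches were far apart. Its log2 difference of batch 2 from batch 1 was -3.17 (SE 0.58, edgeR quasi-likelihood test, BH-adjusted p = 0.00119). Lypd3 was 8.84 to 15.1 CPM in batch 1 and 3.53, 0.857 and 1.01 CPM in batch 2, a log2 difference of -2.76 (SE 0.74, edgeR quasi-likelihood test, BH-adjusted p = 0.0127). Ly6a was 420 to 695 CPM in batch 1 and 261, 204 and 226 CPM in batch 2, a log2 difference of -1.25 (SE 0.33, edgeR quasi-likelihood test, BH-adjusted p = 0.0176). None of the 3 overlapped between batches. Lypd3 lost its call without BCAM LO 7 (-2.41) or 8 (-2.50), and Ly6a without BCAM LO 6 (-1.35), 7 (-1.17) or 8 (-1.25), with differences of much the same size, while Ly6g6c kept its call with each library left out. Immune markers summed to 135 to 369 CPM in BCAM LO of batch 1 and 23.7 to 63.96 CPM in batch 2, and suprabasal and hillock markers to 7105 to 8657 and 4054 to 5641 CPM; their part was not tested.

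In the differentiated group, 4 of 9 members were called, all lower in batch 2, where 20.1% of genes were called in either direction and 10.2% lower. Lypd2 was 962 to 1239 CPM in batch 1 and 98.8, 82.3 and 293 CPM in batch 2, a log2 difference of -2.79 (SE 0.29, edgeR quasi-likelihood test, BH-adjusted p = 7.39e-07). Ly6e was 2073 to 2685 CPM in batch 1 and 534, 328 and 1377 CPM in batch 2, a log2 difference of -1.67 (SE 0.29, edgeR quasi-likelihood test, BH-adjusted p = 0.000226). Ly6a was 493.3 to 819 CPM in batch 1 and 86.4, 50.8 and 227 CPM in batch 2, a log2 difference of -2.47 (SE 0.35, edgeR quasi-likelihood test, BH-adjusted p = 4.95e-05). In each of these genes differentiated 7 was the lowest library and differentiated 8 the closest to batch 1, and the batches did not overlap. The secretory sum had the same order, with 21400 CPM in differentiated 7 and 157200 CPM in differentiated 8, and the thyroid and parathyroid sum the reverse; their part was not tested. Ly6g6c was the other called member, at 18.4 to 73.1 CPM in batch 1 and 4.52, 6.83 and 12.3 CPM in batch 2 (log2 difference -2.41, SE 0.62, edgeR quasi-likelihood test, BH-adjusted p = 0.00936); its call was lost without differentiated 6 (-2.16) or 7 (-2.29), with a difference of much the same size. With differentiated 6 and 7 both left out, which leaves differentiated 8 alone in batch 2 and takes its spread from the other groups, Ly6a, Ly6e and Lypd2 were still called and Ly6g6c was not (log2 difference -1.802, edgeR quasi-likelihood test, BH-adjusted p = 0.403).

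**Figure D4:**
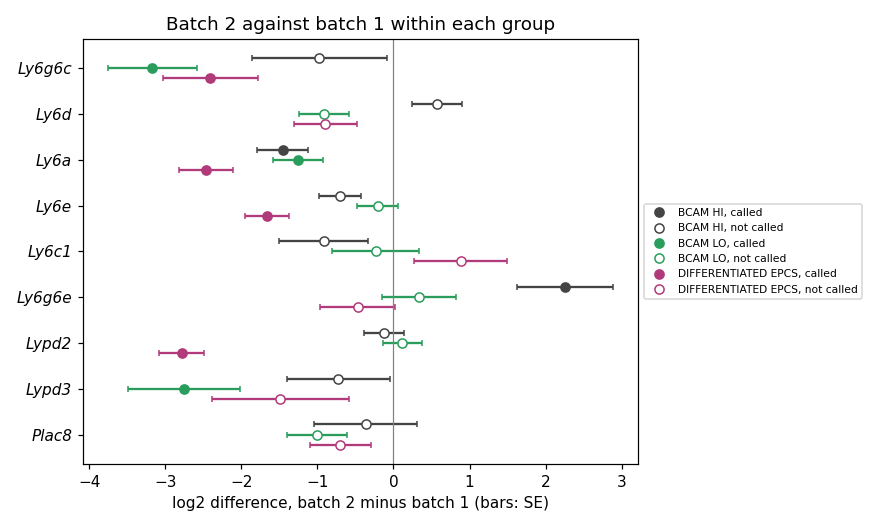
Log2 difference of batch 2 from batch 1 (x axis, bars of 1 SE) for each member in each group; filled points were called by edgeR's quasi-likelihood test at a BH-adjusted p under 0.05 and open points were not. Ly6a is called lower in all 3 groups, and Lypd2 lies at -2.79 in the differentiated group but near 0 in both BCAM groups.

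**Figure D5:**
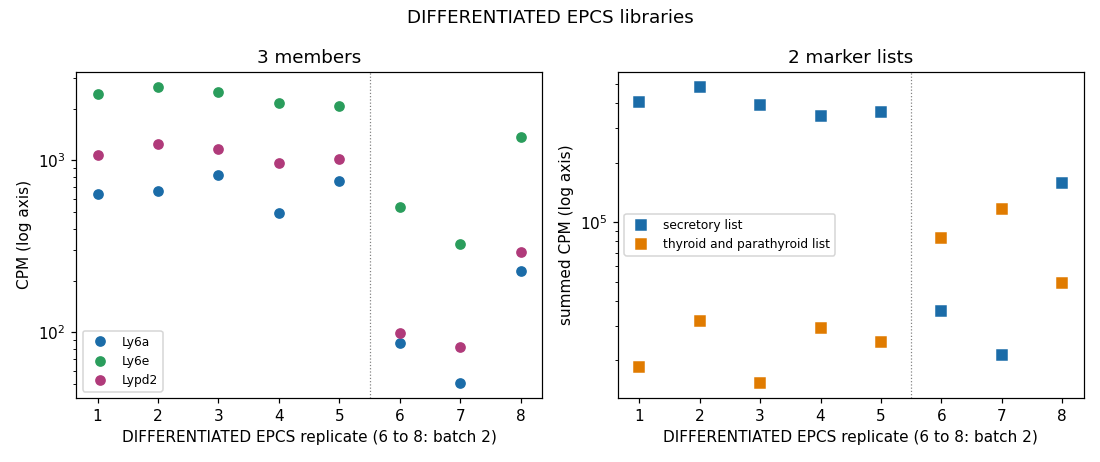
CPM of Ly6a, Ly6e and Lypd2 (left) and summed CPM of the secretory list and of the thyroid and parathyroid list (right) in each differentiated library, both on logarithmic axes; the dotted line parts batch 1 from batch 2. All 3 members and the secretory sum are lowest in differentiated 6 and 7, where the thyroid and parathyroid sum is highest.

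Whether a difference between groups changed from batch 1 to batch 2 was tested as an interaction. It is built from the group differences of the same libraries by which the members were chosen. These calls are therefore not independent of that choice and describe the list. For BCAM HI against BCAM LO, 0 of 9 members were called by edgeR's quasi-likelihood test (1.06% of genes in either direction), with 3 at an unadjusted p under 0.05; DESeq2 also called 0, with 4 at an unadjusted p under 0.05. For BCAM HI against the differentiated group, 2 of 9 were called (8.69% of genes). Lypd2 changed by 2.66 on the log2 scale (SE 0.37, edgeR quasi-likelihood test, BH-adjusted p = 6.08e-05) and Ly6g6e by 2.73 (SE 0.81, BH-adjusted p = 0.0299). For BCAM LO against the differentiated group, 2 of 9 were called as well (11.4% of genes). Lypd2 changed by 2.90 (SE 0.38, edgeR quasi-likelihood test, BH-adjusted p = 2.17e-05) and Ly6e by 1.46 (SE 0.38, BH-adjusted p = 0.0143). Mean Lypd2 moved from 1090 to 158 CPM in the differentiated group between the batches, against 347 and 319 CPM in BCAM HI and 504 and 546 CPM in BCAM LO. With differentiated 6 and 7 left out, Lypd2 alone was called in both of the latter comparisons; the Ly6g6e interaction was then 2.125 (edgeR quasi-likelihood test, BH-adjusted p = 0.347) and that of Ly6e 0.57 (BH-adjusted p = 0.27). The Ly6g6e interaction also lost its call without BCAM HI 5, 7 or 8 or differentiated 1, 6 or 7, with values of 1.69 to 3.30 over all single libraries left out, and the Ly6e interaction without differentiated 6.

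Other genes of the family were read from a list not picked for how they moved in these data. Of 37 further Ly6 and uPAR domain genes, 31 were matched and 10 passed the filter: Ly6k, Ly6g6d, Lypd6, Lypd6b, Lynx1, Slurp1, Pinlyp, Plaur, Cd59a and Cd59b. Between BCAM HI and BCAM LO, 0 of the 10 were called higher and 1 lower in BCAM HI. That gene was Ly6g6d, which lies beside Ly6g6c and Ly6g6e and shares sequence with the latter. It had means of 2.25 ± 0.86 CPM in BCAM HI and 5.81 ± 2.84 CPM in BCAM LO (SD, n = 8; log2 difference -1.34, SE 0.35, edgeR quasi-likelihood test, BH-adjusted p = 0.0164). The 10 genes had a median log2 difference of -0.24, while 2.43% of all genes were called higher and 4.59% lower. The Ly6g6d call was lost with no filter on low counts (-1.29, BH-adjusted p = 0.0913), in batch 1 alone (-1.15, BH-adjusted p = 0.151) and in batch 2 alone (-1.67, BH-adjusted p = 0.24, all edgeR quasi-likelihood test). Genes under the filter then entered the count: with no filter the 2 genes called lower were Psca and Cnfn, and with DESeq2 they were Psca and Ly6g6d.

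Against the differentiated group, 2 of the 10 were called higher and 4 lower in BCAM HI (19.4% and 22% of all genes), and 3 were called higher and 1 lower in BCAM LO (16.3% and 17.1%); the medians were -0.39 and -0.19. Pinlyp, which encodes a phospholipase inhibitor, was 4.995 to 12.97 CPM in BCAM HI and 5.49 to 13.11 CPM in BCAM LO and had 0 counts in all 8 differentiated libraries. It was at least 47.1-fold higher in BCAM HI and at least 44.6-fold higher in BCAM LO, against a floor of 3 counts over the differentiated group (edgeR quasi-likelihood test, BH-adjusted p = 5.89e-10 and 1.41e-09). Cd59a, an inhibitor of complement lysis, was lower in both, with a log2 difference of -1.43 (SE 0.25) in BCAM HI and -1.89 (SE 0.26) in BCAM LO (edgeR quasi-likelihood test, BH-adjusted p = 4.72e-05 and 2.36e-06); on the log2 scale of TPM + 0.1 the former was -0.65 and was not called (limma, BH-adjusted p = 0.0585). Ly6g6d (-1.76, SE 0.35), Cd59b (-1.33, SE 0.47) and Lypd6b (-0.50, SE 0.13) were also called lower in BCAM HI, although Lypd6b turned to 0.32 on the log2 scale of TPM + 0.1. On that scale, which also gave the smaller Cd59a value, the median of all genes was shifted upward in this comparison, as given in the section on processing. Lynx1, a partner of nicotinic receptors, was called higher in both (0.50, SE 0.20, and 0.54, SE 0.20), and Slurp1, a secreted member, in BCAM LO (1.39, SE 0.45; edgeR quasi-likelihood test, BH-adjusted p = 0.0438, 0.0335 and 0.0168). With differentiated 6 and 7 left out, Lynx1, Slurp1 and Cd59b were not called (edgeR quasi-likelihood test, BH-adjusted p = 0.2 and 0.128 for Lynx1, 0.0516 for Slurp1 and 0.128 for Cd59b). Nor were they in batch 1 alone (Lynx1 0.14 and 0.29, Slurp1 0.94, Cd59b -0.82). For BCAM HI the Lynx1 call was lost with DESeq2 too (0.49, BH-adjusted p = 0.0511). It was also lost without any single one of BCAM HI 1, 3, 4, 6, 7 and 8 or differentiated 1, 6, 7 and 8, and for BCAM LO without BCAM LO 5 or 7 or differentiated 1, 6 or 7.

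Cd59a differed between batches in the opposite direction to the called members in the differentiated group. There it was 48.5 to 63.3 CPM in batch 1 and 129, 136 and 108 CPM in batch 2, a log2 difference of 1.15 (SE 0.18, edgeR quasi-likelihood test, BH-adjusted p = 3.5e-05), while it was lower in batch 2 in BCAM HI (-0.76, BH-adjusted p = 0.0163) and BCAM LO (-0.71, BH-adjusted p = 0.0276); the latter calls were lost without BCAM HI 6 or 7 and without BCAM LO 2, 7 or 8. In the differentiated group 1 of the 10 family genes was called higher and 4 lower in batch 2 (9.98% and 10.2% of all genes), namely Slurp1 (-2.82), Ly6k (-2.19), Plaur (-1.54) and Lynx1 (-1.07 on the log2 scale), and with differentiated 6 and 7 left out none of these 4 was called (BH-adjusted p from 0.439 to 0.725).

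Psca and Cnfn, which did not pass the filter, are named because their uneven levels were seen first. Psca, which encodes prostate stem cell antigen, was at 0 counts in 7 of 8 BCAM HI libraries and 1.18 CPM in BCAM HI 4, ran from 2.14 to 60.6 CPM in BCAM LO (median 6.04, n = 8) and from 0 to 16.4 CPM in the differentiated group (median 1.14, n = 8). Cnfn, a PLAC8 domain gene of cornified envelopes, had 204 counts in BCAM LO, 174 of them in replicate 1, against 1 count in BCAM HI and 4 in the differentiated group. The ratio of BCAM LO to BCAM HI was 211, with an exact 95% conditional binomial interval of 37.4 to 8362 that covers counting error only; with 174 counts in a single library it describes that library more than the group.

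The genes most like each member were found by Pearson correlation of log2 CPM over the 24 libraries, which share groups, batches and depth; the values describe likeness and carry no test. Ly6e was most like Aldh1a1 (r = 0.97), Muc1 (0.96) and Adgre5 (0.95), and Lypd2 most like Gsto1 (0.96), Selenbp1 (0.96) and Muc1 (0.95). For Ly6a the nearest were Porcn (0.96), Akr1c18 (0.96) and Oasl2 (0.95). Ly6g6c stood nearest to Gm9573 (0.93), Ifit1bl1 (0.92) and Serpinb2 (0.88), and Plac8 to Mal (0.93), Calml3 (0.91) and Ceacam1 (0.91). Ly6g6e was nearest to Kctd14 (0.89), 2010300C02Rik (0.89) and Ceacam1 (0.88), and Lypd3 to H2-Aa (0.86), H2-Eb1 (0.85) and Ppp3ca (0.85). Lower values were found for Ly6d (Atp13a3, 0.85) and Ly6c1 (Cnnm3, 0.72).
After the mean of each group and batch was taken away, Ly6e remained near Muc1 (0.97) and Aldh1a1 (0.96), Lypd2 was nearest to Scgb3a2 (0.95) and Wfdc2 (0.95), and Ly6a to Cxcl17 (0.95). Among the members themselves, Ly6e with Lypd2 (0.93), Ly6a with Ly6e (0.86) and Ly6a with Lypd2 (0.82) had the highest remaining values; differentiated 6, 7 and 8, which differed widely from each other, are among the 24 points. Ly6g6c and Plac8 had a value of 0.87 over all libraries and 0.51 after the means were taken away.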

How the data were processed

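Bulk RNA sequencing libraries of sorted mouse tracheal epithelial cells (24 samples, SmartSeq2, paired reads of 38 bp) were used as deposited. The authors' tables hold, per the file headers, an estimated count and a TPM value for each transcript; the submitters' processing notes name kallisto (46.1), Picard and the build GRCm39. Of 117497 transcripts, 116374 matched GENCODE M21 (GRCm38) without version, and 1123 (0.317% to 0.594% of a library's estimated counts) were left out; coordinates are those of M21. Estimated counts were summed per gene and rounded; deposited TPM values were summed per gene.

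Tests used edgeR 4.0.16 (quasi-likelihood, robust, TMM, default filter on low counts, R 4.3.3) over all 24 libraries: group means plus batch for groups, and 6 group and batch means for batches and interactions, with Benjamini-Hochberg adjustment over 12211 genes at 0.05. Standard errors are the absolute log2 change over the square root of F. Scripts were tested on simulated data. Alternatives used DESeq2 1.42.0 and limma 3.58.1, other filters and scalings, a replicate block, batches alone and libraries left out. Estimated counts divide reads among similar genes. Amplified reads carry no molecular identifiers, so floors (3 counts) and intervals cover counting error only.

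The members, lists and tests were chosen with earlier results of these data known. Named genes are the 9 members, up to 4 called family genes with the largest change per comparison and direction, up to 2 called genes and the markers at 0 per marker list (of these only the latter are printed), and the 3 genes most like each member, before and after the mean of each group and batch is taken away (printed in part); others were named after their values were seen. Leaving out differentiated 6 and 7 was added after seeing the data.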

Additional observations from a re-analysis of the deposited data

Results flagged for a closer look

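Of 27 sets of 8 libraries (9 members in 3 groups), 3 held a library whose gap to the nearest other library was large for the range of its group by Dixon's criterion. About 1 in 20 sets would be picked out by chance if all 8 values came from a single normal distribution. The sets here mix the batches and are in CPM, so that rate need not hold. Ly6g6c was 11.75 CPM in BCAM HI 4, against a group median of 1.70 CPM. Ly6d was 17.94 CPM in differentiated 3, against a median of 7.66 CPM. Lypd3 was 8.32 CPM in BCAM HI 3, against a median of 2.95 CPM.

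In 4 cases, the difference between a BCAM group and the differentiated group itself differed between the batches by an interaction test (edgeR quasi-likelihood test, BH-adjusted p under 0.05). The members were chosen by their levels in these groups, so the calls are not independent of that choice. For BCAM HI, the log2 difference of Ly6g6e changed by 2.725 and that of Lypd2 by 2.66 from batch 1 to batch 2. For BCAM LO, that of Ly6e changed by 1.459 and that of Lypd2 by 2.90. Differentiated 6 and 7, with their low secretory and high thyroid sums, take part in all 4, and without them only the changes of Lypd2 were called, while that of Ly6g6e was 2.125 and that of Ly6e 0.57; the part of those sums was not tested.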

How the results depend on the processing

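Of 240 alternative values of the members' group differences, 208 moved by less than the spread between the libraries of a group, 16 moved further and 16 changed sign. Of 627 with 1 library left out, 4 changed sign. That spread was taken over both batches together and so includes the difference between them. A wide move could thus count as within it: Lypd2 in BCAM LO against differentiated was -0.2541 in the main fit and -1.116 in batch 1 alone. On log2 TPM (pseudocount 0.1 and then 1), where the median of all genes shifted to 0.261 for BCAM HI against BCAM LO, 0.753 for BCAM HI against the differentiated group and 0.482 for BCAM LO against it, the sign changed for Ly6e (BCAM LO against differentiated, 0.1068 and 0.1063), Lypd2 (BCAM HI against differentiated, 0.183 and 0.1815; BCAM LO against it, 0.5183 and 0.5166), Ly6c1 (BCAM HI against BCAM LO, 0.4032 and 0.3643) and the family gene Lypd6b (BCAM HI against differentiated, 0.3209 and 0.309). In batch 2 alone it changed for Ly6e (0.4454) and Lypd2 (1.793) in BCAM LO against differentiated, Lypd2 (1.014) and Ly6c1 (-0.5502) in BCAM HI against differentiated, and Plac8 (-0.04979) in BCAM LO against differentiated. In batch 1 alone it changed for Ly6a (BCAM LO against differentiated, -0.2987) and Ly6c1 (BCAM HI against BCAM LO, 0.1067). For BCAM LO against differentiated, Ly6a ran from -0.04485 (without differentiated 7) to 0.2152 with 1 library left out and was -0.2149 without differentiated 6 and 7, and for BCAM HI against BCAM LO, Ly6c1 ran from -0.2549 to 0.1524 with 1 library left out. The causes were not tested.

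Counts of calls also moved. For BCAM HI against BCAM LO, 1 family gene was called (Ly6g6d), against 2 with no filter on low counts (Psca and Cnfn, not Ly6g6d), 2 with DESeq2 (Psca and Ly6g6d), 1 in batch 1 alone (Psca) and 0 in batch 2 alone; settings with a looser filter tested more of these genes. Members called between batches in BCAM HI were 2, against 1 by limma with either pseudocount and 0 to 3 with 1 library left out; in BCAM LO they were 3, against 5 with no filter and 1 to 3 with 1 library left out; in the differentiated group they were 4, and 3 to 4. For the interactions, BCAM HI against BCAM LO had 0, against 1 with no filter (Ly6d). BCAM HI against differentiated had 2, against 1 by limma with either pseudocount, 1 without differentiated 6 and 7, and 1 to 4 with 1 library left out. BCAM LO against differentiated had 2, against 1 with no filter, 1 by limma with pseudocount 0.1, 1 without differentiated 6 and 7, and 1 to 3 with 1 library left out. The causes were not tested.

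Libraries with the same replicate number correlated at 0.0315 to 0.176 in their deviations, over 0.1 in 3, 3 and 1 of 8 numbers, and 8, 8 and 7 correlated best with their own number, a hint from the data and not the design. With the number as a replicate block, the interaction of BCAM HI against differentiated had 5 members called in place of 2; those of the other comparisons had 0 and 3, family calls were 1, 5 and 3, and 18 of 27 member differences were fitted below 0, as without the block. Depth limits Ly6g6c, Ly6g6e, Lypd3 and Plac8 in BCAM HI and Lypd3 in differentiated libraries, where single libraries held few counts.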
